A study of Saccharomyces cerevisiae with 49 samples.

Results

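The genes described here encode the nuclear parts of the respiratory chain and the ATP synthase of budding yeast. They were chosen by name: a gene was taken if its symbol on the array platform was ATP, COX, QCR or SDH followed by a number and at most an A or B, or was CYT1, CYC1, CYC7, RIP1, COR1 or NDI1. The rule found 55 of the 5540 genes that the platform names, each with 1 probe. Of these, 36 encode subunits or electron carriers, 18 encode assembly factors and 1, SDH9, encodes a paralog of SDH1. The subunits are NDI1, 4 genes of complex II, 9 of complex III, the pair of cytochrome c genes, 9 of complex IV and 11 of the ATP synthase. The assembly factors serve complex II (3 genes), complex IV (9 genes) and the ATP synthase (6 genes). None of the 55 is encoded by mitochondrial DNA. A further 10 genes whose RefSeq symbols match the rule, 5 of them mitochondrially encoded, have no probe under that name and were not analysed here.

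The study followed messenger RNA through the cell cycle after release from 2 kinds of G1 arrest, on 49 arrays that each set synchronized cells (Cy5) against mid-log cells (Cy3). In the first course, 1 culture of a bar1- strain of BY4741 was held for 3 h in 1 ug/ml alpha factor, the mating pheromone, filtered, rinsed and moved to fresh rich medium (YPD) that also held 5 ug/ml of an agent the label does not name. It gave 17 arrays from 0 to 150 min, and its reference was mid-log RNA of the same strain. In the other courses, a temperature-sensitive cdc28(ts) strain of BY4741, which carries the cdc28-13 allele per the series text, was held at 37 °C for 3 h and released by cold YPD, to 22 °C per the labels and 25 °C per the series text. Cdc28 is the cyclin-dependent kinase that drives passage from G1. Its cultures B and E gave 16 arrays each, every 15 min from 0 to 225 min in B and every 10 to 20 min from 0 to 160 min in E, against mid-log RNA of the cdc28(ts) strain. Release and transfer to fresh medium coincided in every course. Strain, arrest, temperature, reference RNA and culture cannot be told apart between the alpha-factor and cdc28 courses. Arrays of 1 culture at different times are not replicates, so tests within a course measure the scatter of arrays about a smooth curve in that culture.

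The respiratory chain of yeast mitochondria passes electrons from NADH and succinate through ubiquinone, complex III and cytochrome c to oxygen at complex IV. Saccharomyces cerevisiae has no proton-pumping complex I and uses single-protein NADH dehydrogenases such as Ndi1 in its place. Complexes III and IV pump protons, and the ATP synthase (complex V) uses the gradient to make ATP. In this yeast glucose represses many of these genes, while the Hap2/3/4/5 complex activates them when cells turn to respiration, and oxygen and heme decide between alternative isoforms of some subunits.

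Each value is a log2 ratio, taken as synchronized cells over mid-log cells, so a level of 0 equals the mid-log culture and a level of 1 lies 1 log2 unit above it. The ratios do not tell how abundant one transcript is beside another. Between 4189 and 6110 values were present per array, with the fewest on the 135 min array of culture B. BAR1, the gene lost in the alpha-factor strain, had no value on those arrays and had values on all 16 arrays of each cdc28 culture. The labels give the slide of each array: the 0 and 20 min arrays of the alpha-factor course shared slide 75, the 0 and 15 min arrays of culture B shared slide 22, and the 10 and 30 min arrays of culture E shared slide 6. The 0 min array of culture E lay alone on slide 76, 10 later arrays lay on slides 6 to 12 and 5 on slides 33 to 36. In culture E no change from 0 min can thus be told apart from a change of slide. The 0 and 30 min arrays lay on different slides in the other courses too, 75 and 78 after alpha factor and 22 and 24 in culture B. HSP12, a heat and stress gene, stood at 0.59 at 0 min of the alpha-factor course, against 6.38 (B) and 5.74 (E). The heat shock genes HSP104 and SSA4 lay the other way, at 2.50 and 1.19 after alpha factor, against -0.05 and 0.24 (B) and -0.19 and 0.66 (E). Their part in the results below was not tested. The members had values on all 49 arrays in 30 cases, and COX18 was measured on 14 alpha-factor arrays and on none of the cdc28 cultures.

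Respiratory subunit genes stood above the mid-log level in arrested cells of all 3 courses and were lower within 30 min of release. In the alpha-factor course the median of the subunits was 0.60 at 0 min, with 29 of 36 above 0, and -0.22 at 50 min, with 13 of 34 above 0. In culture B the median was 0.45 at 0 min, with 29 of 35 above 0, and -0.32 at 30 min, with 13 of 34 above 0. In culture E it was 0.73 at 0 min, with 27 of 35 above 0, and -0.86 at 30 min, with 1 of 34 above 0. The low point was followed by a return. By 150 min of the alpha-factor course the median stood at 0.29 and by 225 min of culture B at 0.23, above the mid-log level, while in culture E it stood at -0.20 at 160 min. Assembly factor genes started closer to the mid-log level, with medians of 0.06, 0.19 and 0.16 at 0 min in the 3 courses.

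**Figure D1:**
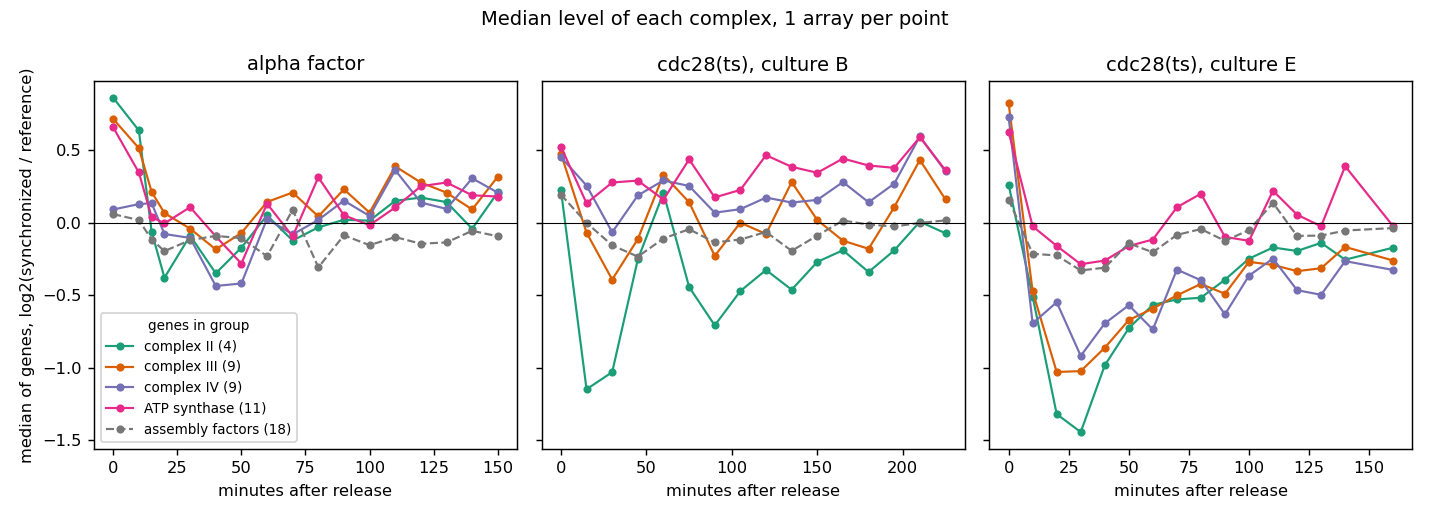
Median log2 ratio to mid-log cells over the subunit genes of each complex and over the assembly factors (vertical axis), by minutes after release (horizontal axis), in the alpha-factor culture and cdc28 cultures B and E. Each point is the median over the genes with a value on 1 array. The subunit curves start above 0 in all 3 courses and lie lower at 30 min, and complex II has the lowest medians of the cdc28 courses, at -1.15 in B (15 min) and -1.44 in E (30 min).

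Pairs of arrays that share a slide showed the same direction without a change of slide. From 0 to 20 min of the alpha-factor course 36 of 49 members were lower, with a median change of -0.37, against a median of -0.03 over all 5141 features, 2699 of which were lower. From 0 to 15 min of culture B 46 of 52 members were lower, with a median change of -0.41, against 0.04 over 5598 features, 2558 of which were lower. From 10 to 30 min of culture E 45 of 49 members were lower, with a median of -0.32, against -0.05 over 5263 features, 57.5% of which were lower too. Complex II had the largest median within-slide change of the 4 complexes each time. It was -1.35 over 3 subunits in the alpha-factor course, where SDH1 had no 20 min value, and -1.26 and -0.91 over 4 subunits in B and E. These are pairs of single arrays and carry no test. The arrays of each pair bear different letters in the labels (T and B), so time and letter cannot be told apart within a pair.

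Cultures B and E were the only replicates, and limma tested their means at 30 min against 0 min. Of 51 members tested, 6 fell (11.8%, against 2.89% of all 5568 features) and none rose (against 2.42%), with 26 lower (51%, against 11.5%) and 0 higher (against 10.5%) at an unadjusted p under 0.05. The 6 were the complex II subunits SDH3 and SDH4, the complex II assembly factor SDH8, cytochrome c1 (CYT1), the complex IV isoform COX5B and the complex IV assembly factor COX11. The estimate was negative for 47 of 51 members, with a median of -0.93, while the median of all features was 0. By complex the median was -1.43 for complex II, -1.44 for complex III, -1.12 for complex IV, -0.68 for the ATP synthase and -0.54 for the assembly factors. Since values of 1 culture deviate together over time, a fit with the cultures as blocks was made too, and it called 17 members lower (33.3%, against 6.14% of all features). These were all 4 subunits of complex II, 6 of 9 of complex III, 3 of 9 of complex IV, CYC7, ATP16, SDH8 and COX11. After quantile normalization 2 of 51 were called, and 12 once the letter that the labels give each array was a term of the fit. Here and below, counts from these fits are of members only, without the share of all features. At 30, 60, 90 and 120 min the letter was T on every culture B array and B on every culture E array. Letter and culture thus cannot be told apart at those times. The median change was -0.55 in culture B alone and -1.31 in culture E alone.

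**Figure D2:**
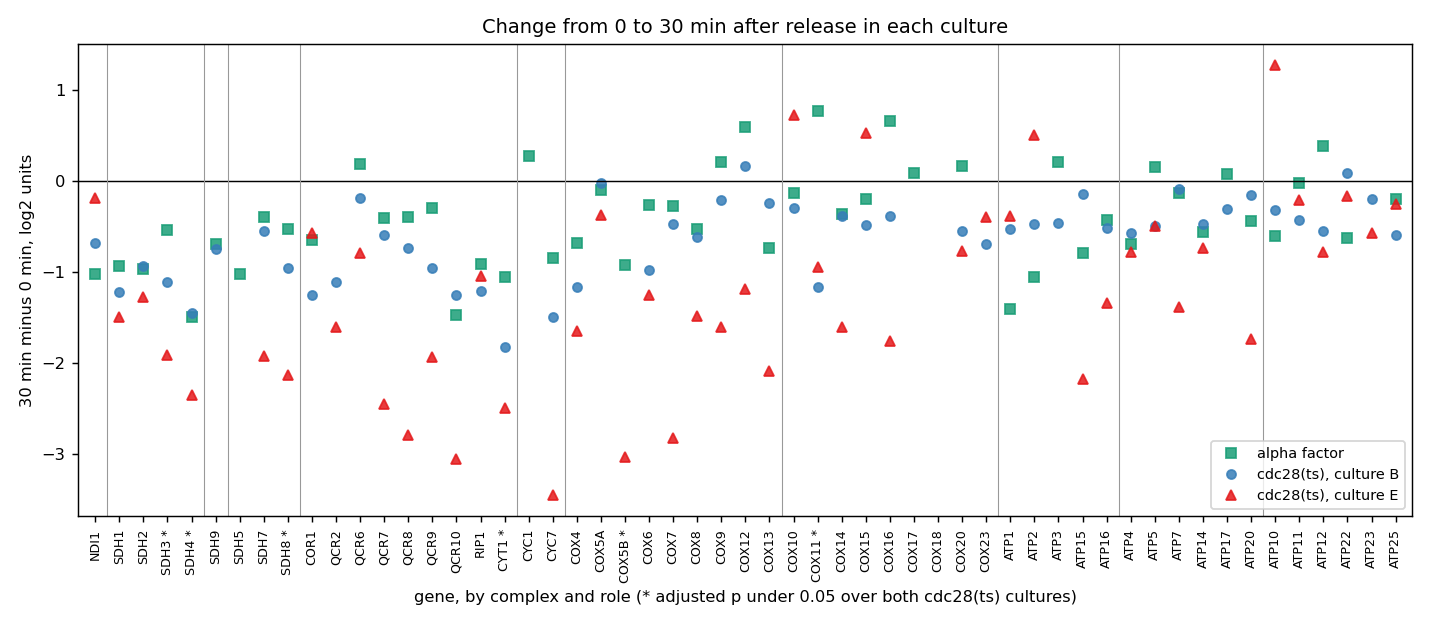
Change in log2 ratio from 0 to 30 min (vertical axis) for each member (horizontal axis), grouped by complex and role, as separate points for cdc28 cultures B and E and the alpha-factor culture; stars mark the 6 members past the threshold in the test of both cdc28 cultures. Most points lie below 0, and culture E lies lower than B for many members; the star of COX5B rests on culture E alone at 30 min.

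Over the mean of 60, 90 and 120 min against 0 min, 5 of 51 members were lower by the limma test (9.8%, against 4.67% of all 5590 features). They were SDH8, QCR10, CYT1, CYC7 and COX5B, of which SDH8, CYT1 and COX5B had been called at 30 min too. No member was higher (against 3.61%). The median was -0.56, and 45 of 51 estimates were negative. With the cultures as blocks 16 members were lower (31.4%, against 9.14% of all features), with the array letter in the fit 9, and after quantile normalization 3. Both sets of changes are set against the same 0 min arrays. From 30 to 120 min the median change of the members was 0.31 in culture B, where 8 of 50 were lower, 0.46 in culture E and 0.18 in the alpha-factor course, where 17 of 51 were lower.

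Tests for any smooth change over time, made in each course alone, called 14 of 52 members in the alpha-factor course (26.9%, against 8.68% of all 5359 features). Of these 12 were subunits, and 9 had their fitted maximum at 0 min. Over all 52 members tested, the fitted curve was highest at 0 min for 59.6%, against 34.5% of all features. In culture B that share was 37.3%, against 31.1%, and in culture E 51.9%, against 36.1%. The count of 14 depends on single arrays, most of all on that at 0 min, without which it was 4. It was 7 without that at 10, 20 or 30 min, 6 without 40 min, 9 without 15, 50 or 110 min and 10 without 120 min. The share of all features called in these fits is not given here. In culture B only 4 of 51 members were called, the ATP synthase subunit ATP20, the protease ATP23, CYC7 and SDH9 (7.84%, against 26.2% of all features). Without the thin 135 min array 10 were called, a count given without the share of all features in that fit. In culture E 32 of 52 were called (61.5%, against 52.7% of all features), a share near the background. They covered all 4 complex II subunits, 8 of 9 of complex III, 6 of 9 of complex IV, both cytochrome c genes, 4 of 11 of the ATP synthase, NDI1 and 7 assembly factors.

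**Figure D3:**
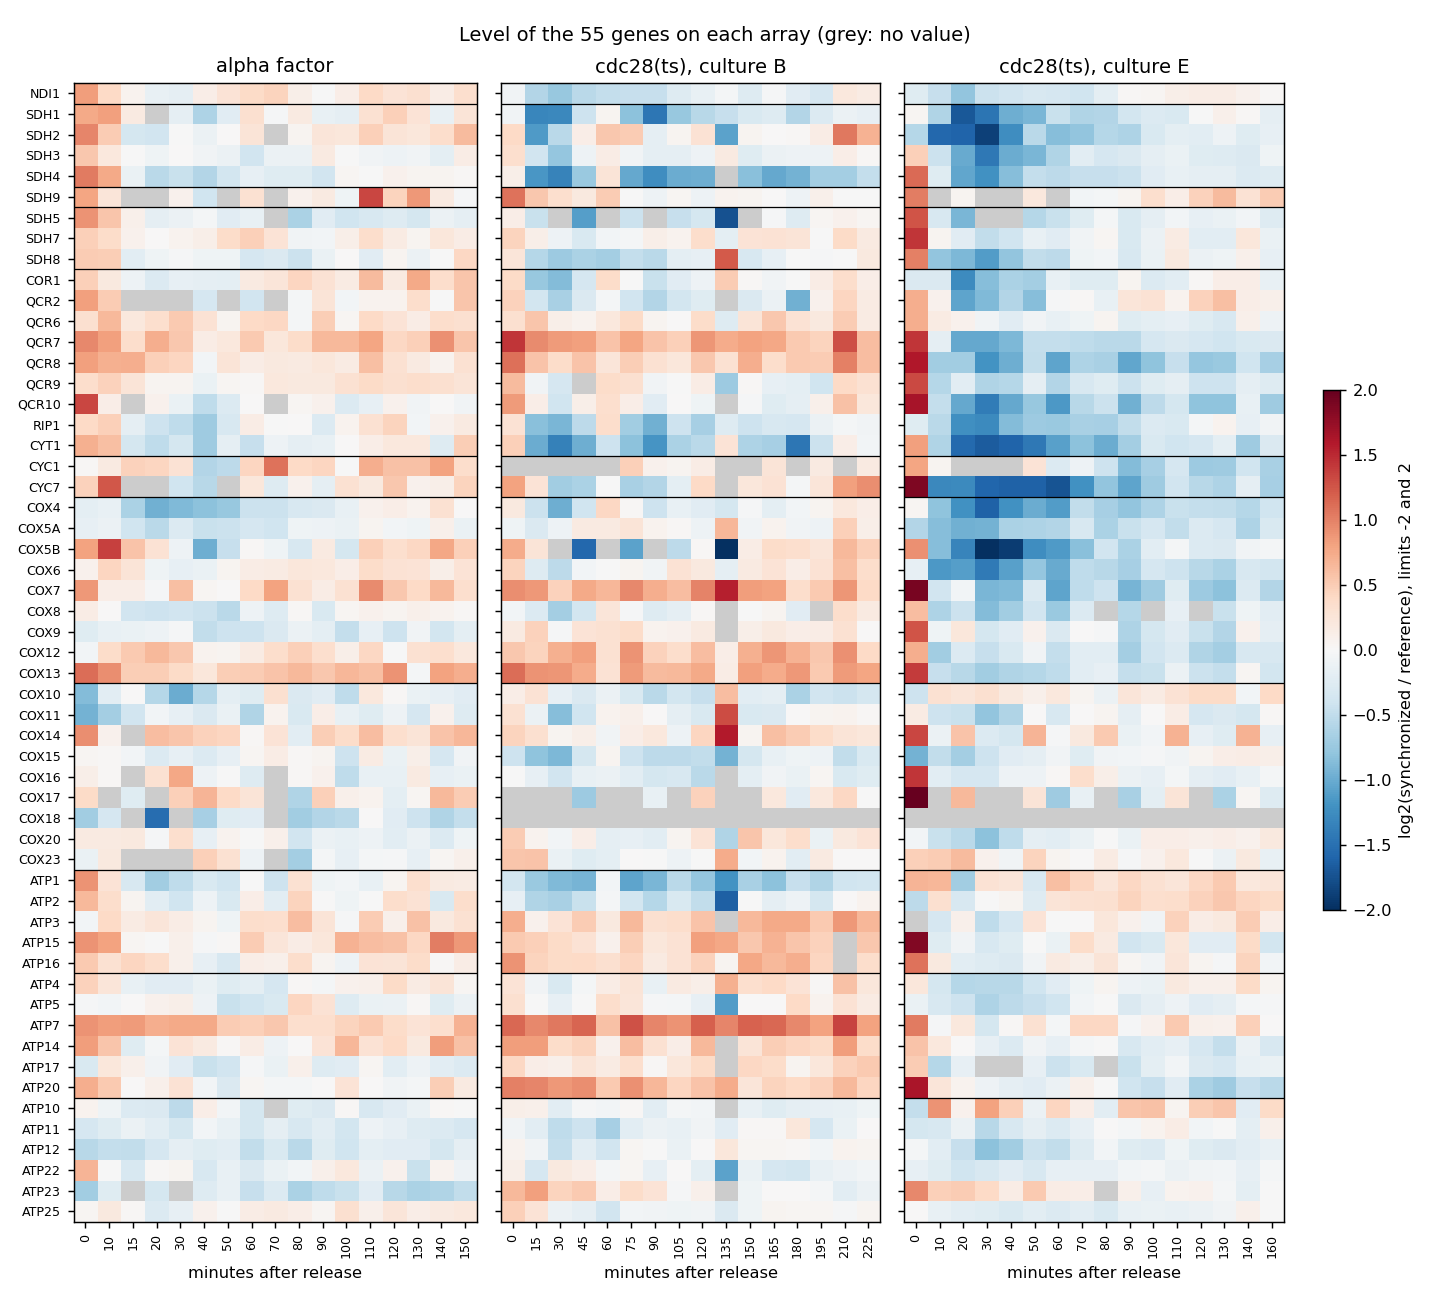
Log2 ratio to mid-log cells of every member (rows, ordered by complex and role) on every array (columns, by minutes after release) of the alpha-factor culture and cdc28 cultures B and E. Colour gives the log2 ratio and grey cells have no value; the columns at 0 min are the highest for many subunits, and culture E is below 0 for most subunits from 10 min on.

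NDI1 (YML120C) encodes the inner-membrane NADH dehydrogenase that feeds electrons from matrix NADH into ubiquinone. In the alpha-factor course its level was 0.84 at 0 min and -0.18 at 30 min, and the median of the 17 arrays was 0.27. In culture B it was -0.07 at 0 min and -0.75 at 30 min, with a median of -0.26 and a maximum of 0.21. In culture E it was -0.24 at 0 min, had its lowest array at 20 min (-0.79) and stood at 0.15 at 120 min. In arrested cells NDI1 thus stood above the mid-log level in the alpha-factor culture, close to it in culture B and somewhat below it in culture E, on 1 array each. The arrest difference at 0 min was 1.00 (SE 0.32), with an adjusted p of 0.109 in limma and of 0.0417 with the cultures as blocks. Over the 5 shared times (0, 30, 60, 90 and 120 min) NDI1 was higher after alpha factor by 0.54 (SE 0.14, adjusted p = 0.0337). This SE takes the arrays of a culture as independent. The cdc28 change at 30 min was -0.43 (SE 0.26, adjusted p = 0.378).

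Complex II, succinate dehydrogenase, links the citric acid cycle to the chain. SDH1 and SDH2 encode the flavoprotein and the iron-sulfur subunit, and SDH3 and SDH4 the membrane anchor. SDH4 (YDR178W) stood at 1.04 at 0 min of the alpha-factor course, and it was lowest at 40 min, at -0.58. In culture B it was 0.11 at 0 min and -1.34 at 30 min, having reached -1.17 by 15 min, and in culture E it was 1.13 at 0 min and -1.22 at 30 min. The 30 min values of both cultures lay below both 0 min values. SDH4 fell by 1.90 on the log2 scale in the cdc28 cultures at 30 min (SE 0.45, adjusted p = 0.0439, and 0.178 after quantile normalization), and it changed over the alpha-factor course (adjusted p = 0.0188).

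SDH3 (YKL141W) was 0.34 and 0.48 at 0 min in B and E and -0.77 and -1.43 at 30 min. It fell by 1.51 (SE 0.32, adjusted p = 0.028, and 0.153 after quantile normalization). SDH1 was -0.07 and 0.05 at 0 min in B and E and -1.29 and -1.46 at 30 min, so the groups did not overlap. Its change was -1.36 (SE 0.37), with an adjusted p of 0.0701 and of 0.0475 with the cultures as blocks. SDH2 differed in level between the cultures, at 0.40 and -0.58 at 0 min and -0.54 and -1.86 at 30 min. Its change of -1.11 (SE 0.56) had an adjusted p of 0.291, and of 0.0433 with the blocks. Over the mean of 60 to 120 min no complex II subunit passed the test, and SDH2 was at -0.08 (SE 0.46). SDH9 (YJL045W), the paralog of SDH1, was highest of its 16 culture B arrays at 0 min, at 1.09, changed over that course (adjusted p = 0.00161) and had too few values for a time test in the other courses.

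Of the 3 assembly factors of complex II, SDH7 and SDH8 had negative estimates at 30 min, and SDH5 had too few values for one. SDH5 aids the attachment of flavin to Sdh1, SDH7 is needed for maturation of the iron-sulfur subunit, and SDH8 is a chaperone of the flavoprotein. SDH8 (YBR269C) was 0.25 and 1.01 at 0 min in B and E, -0.72 and -1.12 at 30 min and -0.16 and -0.12 at 120 min. It fell by 1.55 at 30 min (SE 0.30, adjusted p = 0.0198, and 0.0513 after quantile normalization) and was lower over the mean of 60 to 120 min, at -1.02 (SE 0.24, adjusted p = 0.0381). SDH8 changed over the alpha-factor course too (adjusted p = 0.0454), with 0.51 at 0 min and -0.43 at 80 min. SDH5 changed there as well (adjusted p = 0.00643), from 0.90 at 0 min to -0.64 at 80 min, and in culture E it was 1.25 at 0 min and -0.91 at 20 min. SDH7 was 0.45 and 1.43 at 0 min in B and E and -0.10 and -0.49 at 30 min, a change of -1.23 (SE 0.36) that missed the threshold (adjusted p = 0.0882).

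Complex III, the cytochrome bc1 complex, moves electrons from ubiquinol to cytochrome c. CYT1 (YOR065W) encodes cytochrome c1, one of its catalytic subunits. In culture B its level was 0.47 at 0 min and -1.35 at 30 min, having reached -0.99 by 15 min, with a median of -0.63 over the 16 arrays. In culture E it was 0.82 at 0 min and -1.67 at 30 min, with a median of -0.70, and 0 min was its only array above 0. CYT1 fell by 2.16 at 30 min (SE 0.31, adjusted p = 0.00601) and its mean over 60 to 120 min was -1.36 against 0 min (SE 0.25, adjusted p = 0.0148). Both calls held with the blocks, and CYT1 is the member with the lowest adjusted p of both comparisons. In the alpha-factor course it was 0.71 at 0 min and -0.71 at 40 min, and it just missed the threshold for change over time (adjusted p = 0.0514).

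QCR10 (YHR001W-A), a small accessory subunit, stood at 1.33 at 0 min of the alpha-factor course and was lowest there at 40 min, at -0.51. In culture B it was 0.86 at 0 min and -0.39 at 30 min, and in culture E 1.66 and -1.40. Its change at 30 min was -2.15 (SE 0.56), with an adjusted p of 0.059 and of 0.0256 with the blocks. It was lower over 60 to 120 min, at -1.74 (SE 0.45, adjusted p = 0.0482, and 0.122 after quantile normalization), with values of -2.63 in culture E alone and -0.85 in culture B alone.

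RIP1, the Rieske iron-sulfur protein, was 0.29 and -0.24 at 0 min in B and E and -0.92 and -1.28 at 30 min. The change of -1.12 (SE 0.40) had an adjusted p of 0.146. The core proteins COR1 and QCR2 had estimates of -0.91 (SE 0.31, adjusted p = 0.129) and -1.36 (SE 0.34, adjusted p = 0.0515). QCR6, the acidic hinge protein, had the estimate of the complex closest to 0, -0.49 (SE 0.29, adjusted p = 0.366). The small subunits QCR7, QCR8 and QCR9 lay between -1.77 and -1.44. With the blocks QCR2, QCR7, QCR8, QCR9 and QCR10 joined CYT1 past the threshold. The cultures differed in level: QCR8 was 0.37 in B and -1.19 in E at 30 min, and QCR7 was 0.84 in B and -1.02 in E. In the alpha-factor course COR1, QCR8, QCR9 and QCR10 changed over time (adjusted p from 0.0181 to 0.0375). COR1 ended higher than it began, with 0.48 at 0 min, -0.28 at 20 min and 0.55 at 150 min.

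Cytochrome c, the mobile carrier between complexes III and IV, has a pair of genes: CYC1 for the main isoform and CYC7 for the minor one, which is derepressed when oxygen is low. CYC7 (YEL039C) was 0.80 at 0 min and -0.69 at 30 min in culture B, where it returned to 0.93 at 225 min. In culture E it was 1.86 at 0 min, -1.59 at 30 min and lowest, -1.73, at 60 min, and 0 min was its only array above 0. In the alpha-factor course it was 0.45 at 0 min, highest at 1.24 at 10 min and lowest at -0.56 at 40 min. Its cdc28 change was -2.47 at 30 min (SE 0.61, adjusted p = 0.0506, and 0.0279 with the blocks) and -1.92 over 60 to 120 min (SE 0.50, adjusted p = 0.0472, and 0.105 after quantile normalization). The later change was -2.98 in culture E alone and -0.87 in culture B alone.

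CYC1 (YJR048W) had values on 37 arrays, and on too few of the shared times for the contrasts. After alpha factor it was 0.02 at 0 min, with its lowest array at 40 min (-0.59), a like level at 50 min (-0.52) and its highest at 70 min (1.09). The lowest measured array of CYC7 was that at 40 min too, but CYC7 had no value at 15, 20 or 50 min. The 0 min level of CYC1 lay close to the mid-log level. In culture E it was 0.79 at 0 min and -0.87 at 90 min, and it changed over time (adjusted p = 0.00331).

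Complex IV, cytochrome c oxidase, has a mitochondrially encoded core, which is not measured here, and nuclear subunits around it. COX5A and COX5B encode alternative isoforms of subunit V: COX5A is the isoform of aerobic cells and COX5B the one used when oxygen is low. COX5B (YIL111W) was 0.81 at 0 min of the alpha-factor course, 1.37 at 10 min and -0.97 at 40 min. In culture E it was 0.92 at 0 min and -2.11 at 30 min, and it stood at -0.28 by 120 min. Culture B held no value at 30, 60 or 90 min, with 0.74 at 0 min, 0.26 at 15 min, -1.58 at 45 min and 0.03 at 120 min, and its lowest value, -2.02, came from the thin 135 min array. COX5B was thus below -1 in the first hour of both cdc28 cultures, and near -1 in the alpha-factor culture. Its estimate at 30 min was -2.94 (SE 0.33, adjusted p = 0.00775), and its mean over 60 to 120 min was -1.46 against 0 min (SE 0.24, adjusted p = 0.0214). At 30, 60 and 90 min the cdc28 group is culture E alone for this gene, which leaves 2 residual degrees of freedom and assumes that culture B would have varied likewise. The later adjusted p was 0.0625 with the array letter in the fit.

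COX5A (YNL052W) stayed within a narrower range. It was -0.17 at 0 min of the alpha-factor course, between -0.54 and 0.11 on all 17 arrays, and it changed over time there (adjusted p = 0.0392), with its lowest array at 20 min. In B and E it was -0.09 and -0.58 at 0 min and -0.10 and -0.95 at 30 min. Its cdc28 change was -0.19 (SE 0.38, adjusted p = 0.807), the smallest of complex IV. The difference between the isoforms was not tested.

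**Figure D4:**
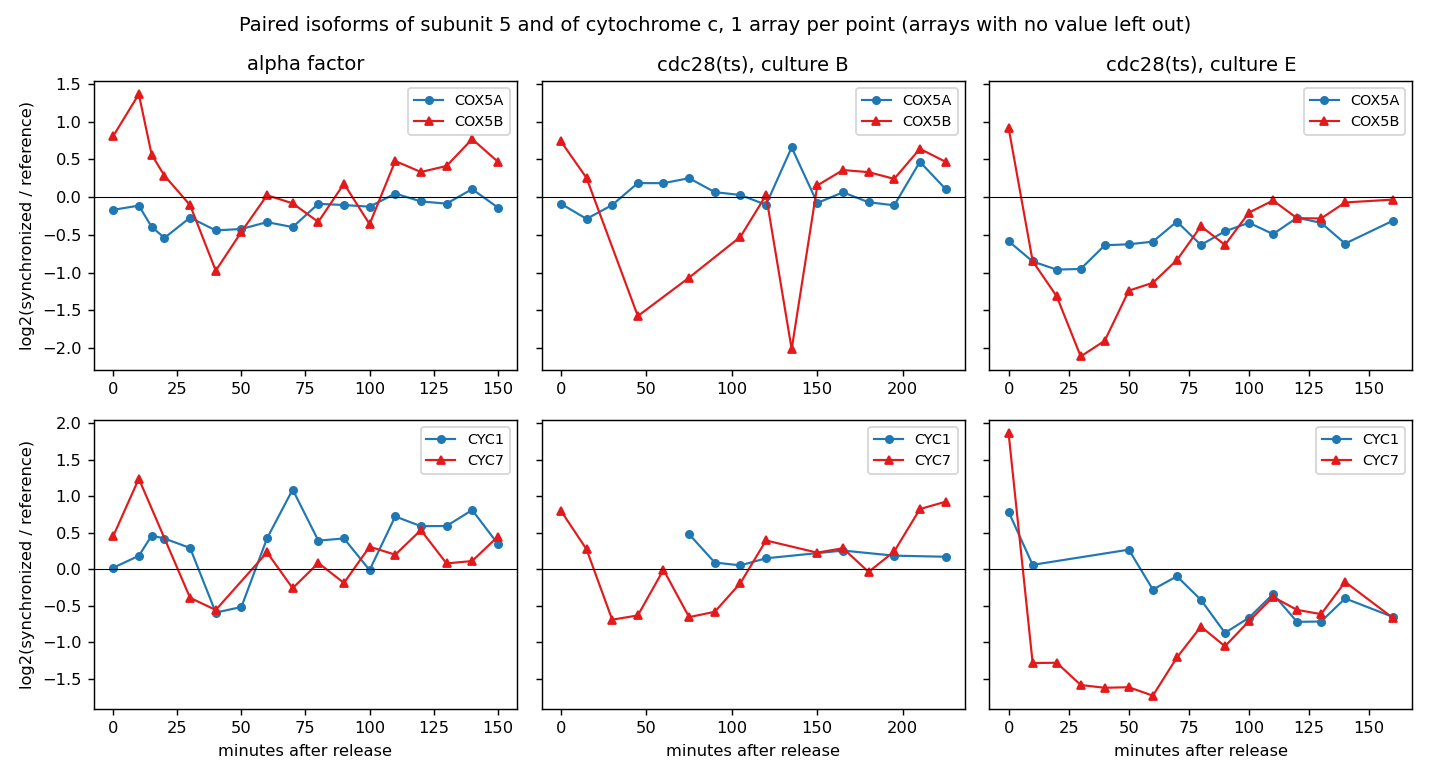
Log2 ratio to mid-log cells (vertical axis) by minutes after release (horizontal axis) for the isoform pairs CYC1 and CYC7 and COX5A and COX5B, in the alpha-factor culture and cdc28 cultures B and E; each point is 1 array. COX5B and CYC7 stand above 0 at 0 min in all 3 courses and reach -2.11 and -1.73 in culture E, while COX5A stays between -0.54 and 0.11 in the alpha-factor culture.

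COX4, a structural subunit of complex IV, had the lowest adjusted p of all members for change over the alpha-factor course (adjusted p = 0.00159). It did not start high: it was -0.20 at 0 min and -0.96 at 20 min, and it stood at 0.31 by 140 min. COX8 changed there too (adjusted p = 0.0323), with 0.16 at 0 min and -0.54 at 50 min. In B and E COX4 was 0.20 and 0.04 at 0 min and -0.98 and -1.61 at 30 min, a change of -1.41 (SE 0.45) with an adjusted p of 0.115 and of 0.0336 with the blocks. COX6 was 0.45 and -0.16 at 0 min and -0.53 and -1.41 at 30 min, and its change of -1.12 (SE 0.46) had an adjusted p of 0.195 and of 0.0128 with the blocks. The other subunits had estimates between -1.64 (COX7) and -0.51 (COX12), none past the threshold. COX7, COX12 and COX13 differed between cultures: at 30 min they were 0.47, 0.71 and 0.88 in B and -0.92, -0.46 and -0.70 in E.

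The ATP synthase consists of a catalytic F1 head and a stalk and Fo part in the membrane. No ATP synthase subunit passed the cdc28 tests at 30 min or over 60 to 120 min in limma without blocks. At an unadjusted p under 0.05, 3 of 11 were lower each time (against 11.5% and 13.8% of all features). With the cultures as blocks 1 of 11 was lower at 30 min (against 6.14% of all features) and 3 of 11 over 60 to 120 min (against 9.14%). Of F1, ATP1 (alpha) was -0.36 and 0.68 at 0 min in B and E and -0.89 and 0.28 at 30 min, a change of -0.46 (SE 0.61, adjusted p = 0.71). ATP2 (beta) was the only subunit of the enzyme with a positive estimate at 30 min, 0.02 (SE 0.43, adjusted p = 0.985), and in culture E it changed over time (adjusted p = 0.00834) from -0.52 at 0 min to 0.54 at 130 min. ATP3 (gamma) had no 0 min value in culture E, so its estimate of -0.85 (SE 0.39, adjusted p = 0.253) sets both cultures at 30 min against B alone. Within culture B its 30 min value was -0.46 relative to 0 min. ATP16 (delta) was 0.91 and 1.09 at 0 min and 0.38 and -0.25 at 30 min, and its change of -0.93 (SE 0.28) had an adjusted p of 0.0924 and of 0.0411 with the blocks. ATP15 (epsilon) had the lowest F1 estimate, -1.16 (SE 0.50, adjusted p = 0.216), and it changed over the alpha-factor course (adjusted p = 0.0458), with 0.90 at 0 min, -0.02 at 40 min and 1.02 at 140 min.

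Of the stalk and Fo part, ATP7 (subunit d) was above the mid-log level on every alpha-factor and culture B array. It changed over the alpha-factor course (adjusted p = 0.0155), with 0.89 at 0 min and 0.28 at 130 min, and in culture B it was 1.14 at 0 min and 1.05 at 30 min. ATP4 (subunit b) changed over the alpha-factor course as well (adjusted p = 0.0188), from 0.46 at 0 min to -0.34 at 70 min. ATP20 (subunit g), which takes part in pairing ATP synthases into dimers, changed in culture B (adjusted p = 0.0244), with 1.01 at 0 min and 0.24 at 150 min, and in culture E (adjusted p = 0.00211), with 1.64 at 0 min and -0.71 at 130 min. Its estimate over 60 to 120 min was the lowest of the enzyme, -1.22 (SE 0.43, adjusted p = 0.109, and 0.0422 with the blocks). ATP17 (subunit f) had the highest estimate of the stalk and Fo part at 30 min, -0.35 (SE 0.41, adjusted p = 0.665), which has no culture E value at 30 min, and ATP5, the OSCP stalk subunit, was at -0.49 (SE 0.31, adjusted p = 0.404).

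The assembly factors of complex IV and the ATP synthase were less uniform. COX11, which delivers copper to the catalytic core, was 0.31 and 0.16 at 0 min in B and E and -0.85 and -0.79 at 30 min. It fell by 1.05 (SE 0.23, adjusted p = 0.0344, and 0.172 after quantile normalization), and over 60 to 120 min its change was -0.41 (SE 0.19, adjusted p = 0.193). After alpha factor COX11 lay the other way, lowest at 0 min at -0.94 and at -0.17 at 30 min. The difference between arrests in this change was 1.82 (SE 0.40, adjusted p = 0.136). COX15, the heme A synthase, was -0.41 and -0.95 at 0 min and -0.89 and -0.42 at 30 min, and it changed over culture E (adjusted p = 3.6e-05) up to 0.15 at 140 min. COX16 had the lowest estimate of the complex IV factors at 30 min, -1.07 (SE 0.41, adjusted p = 0.166), and COX10, which makes the heme A precursor heme O, the highest, 0.22 (SE 0.38, adjusted p = 0.783).

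ATP23, a protease and chaperone that matures the mitochondrially encoded Atp6, differed between the arrests at 0 min. It was -0.70 at 0 min of the alpha-factor course and 0.65 and 0.97 in B and E. It was below 0 on all 15 alpha-factor arrays with a value. The difference at 0 min was -1.51 (SE 0.27, adjusted p = 0.0225), and its adjusted p was 0.0697 after quantile normalization. In both cdc28 cultures ATP23 changed over time (adjusted p = 0.00114 in B and 0.00113 in E), to -0.22 at 210 min of B and -0.19 at 140 min of E. ATP12 and ATP11, chaperones of the F1 alpha and beta subunits, had estimates of -0.66 (SE 0.24, adjusted p = 0.147) and -0.32 (SE 0.24, adjusted p = 0.478) at 30 min. ATP10, an Fo assembly factor, had the highest estimate of all members, 0.48 (SE 0.42, adjusted p = 0.555).

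Between the arrests at 0 min, limma without blocks called 1 of 51 members, ATP23 (1.96% lower, against 1.2% of all 5586 features, and none higher, against 2.45%). The median difference of the members was -0.12, which turned to 0.27 with the array letter in the fit and was -0.23 and -0.03 without culture B or E. At 0 min the letter was T on both cdc28 arrays and B on the alpha-factor array, so letter and arrest cannot be told apart there. With the cultures as blocks NDI1 was higher and ATP23 and COX11 were lower after alpha factor (3 of 51, against 13.9% of all features in either direction). Over the shared times, limma called 4 of 48 members higher in the alpha-factor course (8.33%, against 9.05% of all 4906 features), a share near the background, and none lower (against 7.6%). They were NDI1, SDH1 at 0.80 (SE 0.20, adjusted p = 0.0282), CYT1 at 0.59 (SE 0.17, adjusted p = 0.0423) and COX5B at 0.88 (SE 0.16, adjusted p = 0.0172, with culture E alone at 3 of the 5 times). With the blocks COX6 at 0.49 and SDH2 at 0.71 were called too (6 of 48, against 15.1% of all features). With the array letter in the fit 16 were. That count is given without the share of all features, so it does not tell whether members were called more often than other features. The estimate was positive for 36 of 48 members, with a median of 0.19, which was 0.33 without culture B and 0.05 without culture E. The alpha-factor culture has 1 array for each time, which the fit takes to vary like the cdc28 pairs. Without blocks, the mean over the shared times takes the arrays of a culture as independent. Deviations of the same cdc28 culture correlated over time (median 0.55), so the SE of that mean can be too small.

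The change after release did not differ detectably between the arrests. limma called 0 of 48 members for the change to 30 min (background 0.198% of features). For the change to 60 to 120 min it called 0 of 51 (0.35%). At an unadjusted p under 0.05, 4 changes to 30 min were higher after alpha factor (8.33%, against 4.08% of features) and none lower (against 6.7%). Of the changes to 60 to 120 min 2 were higher (3.92%, against 4.02%) and none lower (against 6.47%). At 30 min 40 of 48 estimates were above 0, with a median of 0.56, against 2440 of 5048 and -0.03 over all features. The median change from 0 to 30 min was -0.43 in the alpha-factor course, -0.55 in culture B and -1.31 in culture E, so the alpha-factor course lay close to culture B and apart from culture E, whose 0 min array lies alone on its slide. The largest difference between arrests at 30 min was that of COX5B, at 2.03 (SE 0.51, adjusted p = 0.229), with no culture B value at 30 min. The lowest was that of ATP10, at -1.08 (SE 0.73). From 0 to 30 min of the alpha-factor course alone, 39 of 51 members were lower (76.5%, against 52% of all features).

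Between the cdc28 cultures the direction agreed for many members and the size did not. The array names in the labels begin with yofG in culture B and the alpha-factor course and with yoG in culture E, so culture and array series cannot be told apart. Of 46 members with values at all the times, 23 (50.0%, against 15.0% of all 5041 features) were below their 0 min level at 30, 60, 90 and 120 min in both cultures. Taken singly, culture B held 28 such members (60.9%, against 26.0%) and culture E held 34 (73.9%, against 37.4%). All 4 comparisons of a culture use its single 0 min array. The mean change was lower in E than in B for 28 members (60.9%, against 49%). In culture E, 18 of 52 members (34.6%, against 38.6% of all 5719 features) differed between the arrays of slides 33 to 36 and those of slides 6 to 12, 14 of them higher on slides 33 to 36. COX14 was shifted by 0.76 and ATP10 by -0.62. On slides 6 to 12 alone, 22 of 52 members changed over time (42.3%, against 60.1% of all features), 19 of them among the 32 of the full course. With the slide as a random block 19 did (36.5%, against 42.4%). With the slide range as a covariate and without 0 min 33 did (63.5%, against 68.1%), 25 of them shared. In each of these fits the share of members lay below that of all features. These tests within slides were added after the slide pattern was seen.

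**Figure D5:**
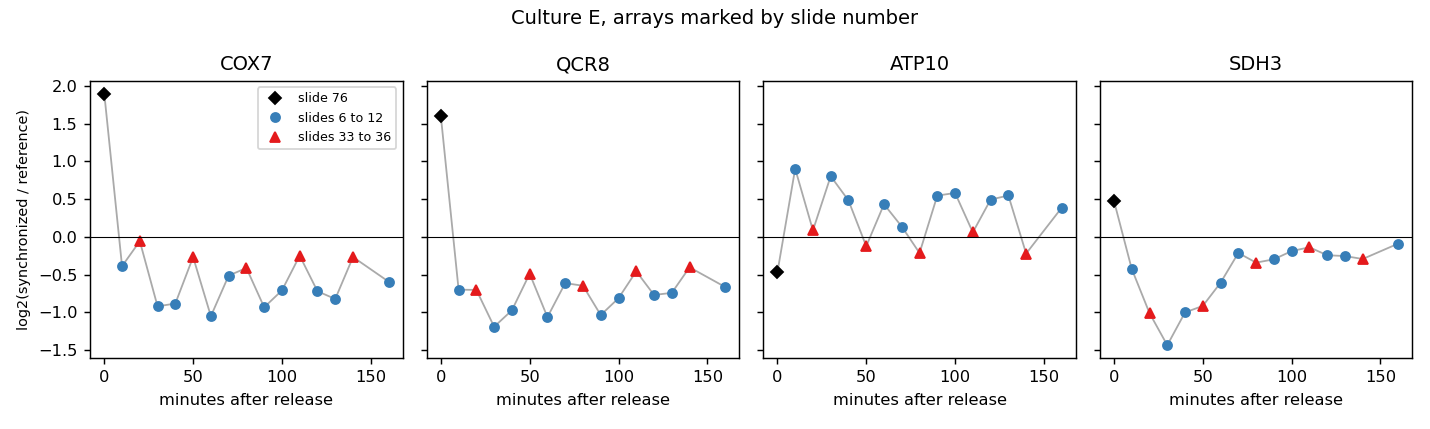
Log2 ratio to mid-log cells (vertical axis) by minutes after release (horizontal axis) in cdc28 culture E for COX7, QCR8, ATP10 and SDH3, with 1 point per array and the symbol giving the slide range of the array. Arrays of slides 33 to 36 (20, 50, 80, 110 and 140 min) lie mostly above those of slides 6 to 12 for COX7 (shift of 0.51) and below them for ATP10 (-0.62), while SDH3 shows little shift (-0.07); the 0 min array is alone on slide 76.

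The share of periodic members lay below that of all features in the alpha-factor course and culture B, and near it in culture E. With a period of 54 min, set on cell cycle marker genes, 9 of 52 members were called periodic in the alpha-factor course (17.3%, against 27.9% of all 5359 features). They were NDI1, SDH1, RIP1, CYC1, COX12 and the assembly factors SDH7, COX10, COX17 and COX18. CYC1 had the largest amplitude, 0.42, with a peak 17.1 min into the period (adjusted p = 0.00814), and the other amplitudes lay between 0.20 and 0.38. None was called with a period 10% shorter, and leaving out the array at 10, 30, 40, 60, 90, 110 or 150 min left 4 or 5. These are counts of members only, without the share of all features called in the same fits. In culture B limma called 0 of 51 members (12.5% of features, period 118 min), with 3 at an unadjusted p under 0.05 (against 1466 of 5598 features). In culture E it called 0 of 52 (3.97% of features, period 97 min), with 6 at an unadjusted p under 0.05 (against 893 of 5717 features). The median amplitude of the members was 0.15 after alpha factor, 0.12 in B and 0.19 in E, against 0.18, 0.17 and 0.14 over all features.

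Genes that work beside the respiratory chain were counted in lists chosen by function. Of all features, 2.89% were lower and 2.42% higher at 30 min in the cdc28 cultures. Over 60 to 120 min 4.67% were lower and 3.61% higher. Of 15 citric acid cycle genes 1 fell at 30 min in the cdc28 cultures, CIT1 (citrate synthase), by 2.80, with a list median of -0.89. CIT1 and the peroxisomal CIT2 were lower over 60 to 120 min, at -1.31 and -1.65. Of 8 other electron input genes, MCR1 (an NADH-cytochrome b5 reductase) and CYB2 (lactate dehydrogenase) were lower at 30 min, at -1.89 (MCR1, measured in 1 of the cultures at that time) and -1.28, and the list median was -1.13. Of 7 further ATPase and respiratory genes STF2, an ATPase-related stabilising factor, was at -2.59, and over 60 to 120 min STF2 and the ATPase inhibitor INH1 were at -1.41 and -1.31. Of 26 other assembly and translation factors NCA3, which acts on the messenger of ATP synthase subunits, and PET117, a complex IV assembly factor, were lower at 30 min, at -3.21 and -1.75. Later 6 of the 26 were lower. HAP4, the regulated subunit of the Hap complex, was 1.92 at 0 min of the alpha-factor course and -0.43 at 30 min, where it changed over time (adjusted p = 0.0201). Its mean in the cdc28 cultures was 0.26 ± 0.18 (SD, n = 2) at 0 min and -0.75 ± 0.96 (SD, n = 2) at 30 min, a change that missed the threshold.

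Regulators and oxygen-responsive genes moved both ways. The shares of all features for the cdc28 changes are those given above. Of 13 regulators of respiration, HXK2, a hexokinase with a part in glucose repression, was higher at 30 min by 2.05, and the glucose repressor MIG1 was lower, at -1.80. Of 10 hypoxic genes, which include COX5B and CYC7, HEM13, a heme biosynthesis enzyme, was higher at 30 min by 2.38 and COX5B was lower, and over 60 to 120 min HEM13 and TIR1 were higher by 1.79 and 2.20. Over the shared times 5 of 14 citric acid cycle genes were higher in the alpha-factor course, against 9.05% of all features (ACO1, CIT1, CIT2, IDH1 and IDH2, by 2.08 to 2.79). At 0 min 1 of 15 was, CIT2, by 3.06 (against 2.45% of all features). SDH1 to SDH4, which belong to the cycle as well as to the chain, had differences of 0.31 to 0.80 over the shared times, with SDH1 past the threshold.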

How the data were processed

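The deposited table holds log2 ratios, as taken here, of 49 dual-colour oligonucleotide arrays, with Cy5 on synchronized and Cy3 on mid-log RNA per the labels. The table states neither log base nor centring nor direction. The direction follows the dyes and was checked on AGA1, a pheromone-induced gene, which stood at 5.37 at 0 min after alpha factor. How the arrays were scanned, background-corrected and normalized is not given in these sources. RNA was total with messenger RNA purified in the alpha-factor course and polyA RNA in the cdc28 courses, per the labels.

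The 6258 probes, 5570 of them named by the platform annotation, gave 6228 features after averaging the probes of 29 genes. Arrays were centred on their medians, which lay between -0.071 and 0.021. Scanner signals were not used here, so precision is stated from the number and scatter of arrays.

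Tests were made in R 4.3.3 by least squares for each feature on its arrays with a value. Variances were moderated with limma 3.58.1, and these tests are called limma tests here. They were two-sided, on features present on 80% or more of the arrays of a fit. P-values were adjusted by Benjamini-Hochberg across those features, with a threshold of 0.05. That covered 52, 51 and 52 members in the alpha-factor course, B and E. Change over time was an F-test of a spline with 3 df in each course. Periodicity was an F-test of a sine and a cosine beside a linear trend, at the period between 40 and 160 min that served cell cycle marker genes best. Contrasts used the 15 arrays of the 5 shared times, with 10 group means, up to 5 residual degrees of freedom from the cdc28 pairs and 4.21 prior degrees of freedom. CYC1, COX17, COX18 and SDH5 had too few values for them. Where a value is absent, the fit uses the other culture. The culture letters pair the samples over time: deviations of the same culture from the group means at different times correlated at -0.075 to 0.873 (median 0.55 over 10 pairs of times). The labels do not say how cultures B and E were started, so p-values measure the spread between these samples. The tests were tried on simulated data, and no outcome is given here. For the tests within a course the simulated noise was independent on each array, which leaves out any correlation between arrays of a slide.

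The members were found by the naming rule; lists, tests and alternatives were chosen with earlier results of these data known. Named with values are the isoform pairs, NDI1, members past a test and the highest and lowest estimates of each complex. Locus tags came from RefSeq. No sequence was used here.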

Additional observations from a re-analysis of the deposited data

Results flagged for a closer look

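COX10 and ATP10 lay on opposite sides of their 0 min level in the cdc28 cultures at all 4 shared times after release. COX10, which makes heme O, had a mean change against 0 min of -0.46 (culture B) and 0.70 (culture E). ATP10, an assembly factor of the Fo part, had a mean change of -0.24 (B) and 1.04 (E). The differences between the cultures were not tested, since each culture has 1 array per time and the 0 min array of culture E lies on its own slide. ATP10 was also shifted by -0.62 between the slide ranges of culture E.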

How the results depend on the processing

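Counts of members called moved by over 1.5 times as follows. They are counts of members only, and the share of all features called in the same fit is not set beside them here. Quantile normalization gave 9 in place of 14 for change over the alpha-factor course, 7 in place of 4 in culture B, 2 in place of 6 at 30 min, 3 in place of 5 over 60 to 120 min and 0 in place of 1 between arrests at 0 min. Restricted to features with values on every array, 2 members were called over culture B and 0 at 0 min. Of the members called otherwise, that filter kept only 2 of 4 and 0 of 1 in the test, and both of the 2 stayed called. The slide as a random block left 19 of 32 in culture E. A period 10% shorter left 0 of 9 periodic members after alpha factor. The array letter as a covariate gave 12 at 30 min, 9 over 60 to 120 min and 16 over the shared times, and it turned the median difference at 0 min from -0.12 to 0.27. That letter cannot be told apart from the arrest at 0 min, nor from the cdc28 culture at the later shared times. The cdc28 cultures as a replicate block gave 17, 16 and 3 at 30 min, over 60 to 120 min and between arrests at 0 min. Leaving out 1 array in turn gave 4 to 14 calls for change over the alpha-factor course, 4 to 10 periodic members there, 2 to 10 changed in culture B (2 without 15 or 45 min, 10 without 135 min), 22 to 37 in culture E, and 0 to 1 periodic members in B and in E. Without culture B or E the medians were -1.31 and -0.55 at 30 min, -0.85 and -0.37 over 60 to 120 min, 0.33 and 0.05 over the shared times and -0.23 and -0.03 at 0 min. The causes were not tested. Of 105 alternatives for the 16 named contrast results, 93 were rated the same, 8 lost the call and 4 moved in size. Where a fit gave an adjusted p, the same means the same direction and call. Where it gave none, only the direction and size of the estimate were compared, so no call was checked there. Under quantile normalization SDH3, SDH4, SDH8 and COX11 (30 min), QCR10 and CYC7 (60 to 120 min) and ATP23 (0 min) lost their calls. COX5B lost its later call with the array letter. Signal over background was not used here, so dim spots were not set apart.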
